A study of Mus musculus with 45 samples.

Results

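The Eif1a-like genes of the 2-cell stage are near-identical copies of one short coding sequence that lie together on mouse chromosome 12. The 6 genes described here, Gm2016, Gm2022, Gm2035, Gm2056, Gm5662 and Gm8300, were taken by name from the 55401 genes in the files. RNA-seq was collected from 45 mouse embryonic stem cell (mESC) samples in 15 groups of 3. The EHMT2-dTAG cells, of strain BL6/129 by the labels, carried a degron and an mCherry reporter on Ehmt2 and grew on mitotically inactive fibroblast feeders, and all their groups, DMSO controls included, carried this allele. They were exposed to DMSO or to the degrader dTAG-13 for 24 h or 7 d, or for 15 d. A Recovery group had 7 d of degrader followed by 8 d without it. In these experiments the 3 samples of a group were 3 clones. EHMT2-dTAG cells that also carried MERVL-GFP, treated in triplicate for 72 h, were sorted into GFP-positive 2-cell-like cells (2CLC) and GFP-negative mESC, each with DMSO or dTAG. A separate experiment exposed wild-type J1 mESCs (WT, labelled WTJ1) and cells depleted of DPPA4 by CRISPR/Cas9 (KO, labelled DPPA4KO) to DMSO or to the EHMT2 inhibitor UNC0638 for 48 h. The labels number these libraries 1 to 3 in each group, and the study's methods call them clonal lines.

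EHMT2 (G9a) places dimethylation on lysine 9 of histone H3, a repressive mark, together with its partner EHMT1. In the mouse embryo the genome is first strongly transcribed at the 2-cell stage, when DUX and its targets, among them Zscan4 genes, MERVL endogenous retroviruses and the Eif1a-like genes, are briefly active. A small share of cultured mESCs passes through a similar state and these are called 2CLC. The parent protein, eIF1A, binds the small ribosomal subunit and takes part in scanning and in the choice of the start codon. DPPA2 and DPPA4 bind DNA together and are known to activate Dux in mESCs.

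The 6 genes lie on both strands of chromosome 12 in build GRCm38. Gm8300 (chr12:87514316-87518266, plus strand), Gm2016 (chr12:87874072-87877859, plus strand) and Gm5662 (chr12:88270640-88274500, minus strand) have 2 exons each. Gm2022 (chr12:87895370-87895804, plus strand), Gm2035 (chr12:87919423-87919857, minus strand) and Gm2056 (chr12:88027004-88027438, plus strand) are single exons of 435 bases. All 6 are protein-coding in the files, and RefSeq lists Gm2035 and Gm2056 as pseudogenes. Each holds an open reading frame of 432 bases before the stop codon, within 1 exon. The stretch below, coding bases 262 to 411 of each gene, is the 150-base part of the coding sequence with the most positions that differ. Each line reads 5′ to 3′ along the gene, and capitals mark the 9 positions at which the 6 are not all alike.

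Gm2016: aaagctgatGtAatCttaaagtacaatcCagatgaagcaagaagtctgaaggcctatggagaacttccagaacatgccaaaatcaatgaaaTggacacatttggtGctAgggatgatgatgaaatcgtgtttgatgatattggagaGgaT
Gm2022: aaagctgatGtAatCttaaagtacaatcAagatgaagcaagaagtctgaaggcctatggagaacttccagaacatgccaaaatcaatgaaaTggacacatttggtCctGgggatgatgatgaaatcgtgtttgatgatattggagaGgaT
Gm2035: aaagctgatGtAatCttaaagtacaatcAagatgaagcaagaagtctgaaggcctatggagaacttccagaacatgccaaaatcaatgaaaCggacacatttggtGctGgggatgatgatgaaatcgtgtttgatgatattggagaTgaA
Gm2056: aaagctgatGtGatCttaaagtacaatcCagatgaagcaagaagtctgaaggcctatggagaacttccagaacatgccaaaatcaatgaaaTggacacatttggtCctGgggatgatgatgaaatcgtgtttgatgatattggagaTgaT
Gm5662: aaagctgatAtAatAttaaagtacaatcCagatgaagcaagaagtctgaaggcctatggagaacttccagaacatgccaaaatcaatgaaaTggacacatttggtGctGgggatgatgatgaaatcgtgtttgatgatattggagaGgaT
Gm8300: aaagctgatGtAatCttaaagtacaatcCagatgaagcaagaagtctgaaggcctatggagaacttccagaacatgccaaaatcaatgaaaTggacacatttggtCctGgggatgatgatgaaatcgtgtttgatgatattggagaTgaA

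The coordinates of these stretches are chr12:87876846-87876995 (plus) for Gm2016, chr12:87895631-87895780 (plus) for Gm2022, chr12:87919447-87919596 (minus) for Gm2035, chr12:88027265-88027414 (plus) for Gm2056, chr12:88271578-88271727 (minus) for Gm5662 and chr12:87517158-87517307 (plus) for Gm8300. Any 2 of the 6 coding sequences were 97.5% to 99.1% identical over 435 bases, stop codon included, which is 4 to 11 differing bases across the 15 pairs. All 6 had the same base at 95.6% of positions, and differed among themselves at 19. Against Eif1ax, the X-linked gene for eIF1A, identity was 84.4% to 85.3%. A search with the Gm2016 coding sequence found 18 copies in the region, taken as the span of the members widened by 500 kb on each side: the 6 members and 12 others.

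Of all 150-base windows along the exons of Gm2016, 43.7% also occur without a mismatch in another gene, and of those of Gm5662, 40.3%. For Gm2022, Gm2035, Gm2056 and Gm8300 the shares were 19.9%, 14.7%, 6.99% and 2.96%. With windows of 100 bases the shares were 64.7%, 66.7%, 45.5%, 50.6%, 58.4% and 10.8% for Gm2016, Gm2022, Gm2035, Gm2056, Gm5662 and Gm8300. A read that matched several places equally well had been assigned to 1 of them at random. The value of a single copy is therefore uncertain, and the sum of the 6, called the family sum, is less so, although reads are also shared with the 12 other copies.

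For the EHMT2-dTAG cells the files used here hold normalised counts as 1 mean per group, so the values below are the authors' means, with no SD and no test. Ratios are log2 of (first mean + 1) over (second mean + 1), and each experiment was normalised on its own. In bulk samples, fewer cells of a type and less RNA per cell cannot be told apart.

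After 24 h of dTAG, all 6 members were higher than in DMSO. The authors' mean of the family sum was 92.6 normalised counts in DMSO and 1112 in dTAG, a log2 ratio of 3.57. Gm5662, the most counted member, had means of 28.1 and 340. Gm2016 had means of 23.6 and 308, and Gm8300 had 21.9 and 265. The single-exon copies had fewer counts, with Gm2022 at 10.6 and 80.5, Gm2035 at 6.06 and 54.3, and Gm2056 at 2.35 and 63.9. The member ratios spanned 2.82 for Gm2022 to 4.28 for Gm2056, whose DMSO mean was the lowest of the 6. Among all genes with a mean of at least 10 over both groups, 2.94% were at least 2-fold higher in dTAG, against 6 of 6 members.

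At 7 d the dTAG means were larger still. The family sum stood at 132 in DMSO and 3297 in dTAG, a log2 ratio of 4.63. Gm5662 had means of 41.7 and 1058, Gm2016 of 31.3 and 919, and Gm8300 of 32.0 and 688. Gm2022 was at 13.4 and 298, Gm2035 at 7.08 and 179, and Gm2056 at 7.02 and 156. The 6 ratios lay within 4.29 and 4.83, all at least 2-fold, against 4.46% of all genes.

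In the 15 d experiment the family sum was 116 in DMSO, 3307 in dTAG and 191 in Recovery. The log2 ratio of dTAG over DMSO was 4.83, with members from 4.46 to 4.94 and 6 of 6 at least 2-fold higher, against 4.38% of all genes. After removal of the degrader the members were lower than in dTAG and still above DMSO. Gm5662 had means of 43.3, 1123 and 69.4 in DMSO, dTAG and Recovery, and Gm2016 had 28.6, 894 and 52.6. Gm8300 had 22.2, 710 and 34.4, Gm2022 had 9.72, 238 and 13.6, Gm2035 had 4.84, 128 and 7.76, and Gm2056 had 6.96, 213 and 13.7. Recovery was above DMSO for each member, by log2 ratios of 0.45 to 0.88, and for the family sum by 0.72. None of the 5 members with a mean of at least 10 was 2-fold higher in Recovery, a level that 1.36% of all genes reached. Their ratios nevertheless ranked high among all genes, from the 90.4th percentile for Gm2022 to the 97.8th for Gm2056. The mean in dTAG was above that in Recovery by 4.10 for the family sum and by 3.87 to 4.33 for members. All 6 members were at least 2-fold higher there, against 5.85% of all genes. Whether the remaining 0.72 exceeds the spread between clones could not be tested from means.

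**Figure D1:**
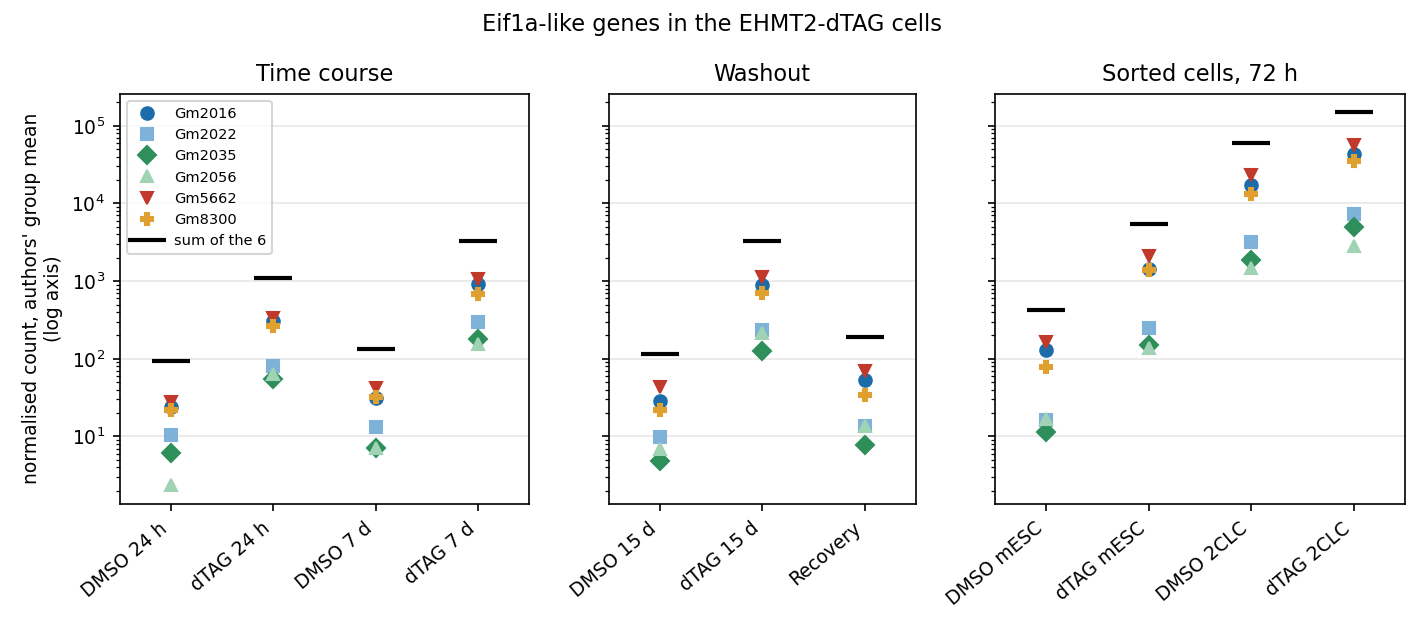
Normalised counts of the 6 Eif1a-like genes and their sum in the EHMT2-dTAG cells, as the authors' group means on a log axis, with 1 panel per separately normalised table and no error bars because the files hold means. The family sum goes from 92.6 to 1112 at 24 h and from 132 to 3297 at 7 d. In the 15 d experiment it is 116 in DMSO, 3307 in dTAG and 191 in Recovery. It reaches 149776 in dTAG 2CLC.

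With DMSO, sorting on the MERVL reporter separated groups by a wider ratio than any dTAG contrast among the group means did. The family sum was 421 in mESC and 59981 in 2CLC, a log2 ratio of 7.15. Gm5662 went from 166 in mESC to 22996 in 2CLC, Gm2016 from 131 to 17393 and Gm8300 from 79.4 to 13058. Gm2022 was at 16.3 and 3211, Gm2035 at 11.6 and 1851, and Gm2056 at 16.7 and 1471. The 6 ratios ran from 6.38 to 7.54, each at least 2-fold, against 14.7% of all genes. With dTAG the same contrast was 4.78 for the family sum, from 5445 in mESC to 149776 in 2CLC, and 4.38 to 5.05 for members, 6 of 6 at least 2-fold against 14.4% of all genes. The gate used a MERVL reporter, so MERVL itself was part of the selection. MERVL-int differed by 7.90 in DMSO and 5.37 with dTAG.

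Within the GFP-negative mESC gate, dTAG was also associated with higher members. The family sum was 421 in DMSO and 5445 in dTAG, a ratio of 3.69. Gm8300 had the largest ratio, 4.10, with means of 79.4 and 1373, and Gm2056 the smallest, 2.96, with 16.7 and 136. Gm5662 had means of 166 and 2098, Gm2016 of 131 and 1440, Gm2022 of 16.3 and 247, and Gm2035 of 11.6 and 150. All 6 were at least 2-fold higher, against 4.74% of all genes. The summed level of 7 markers of 2CLC fixed for this comparison also differed in this gate, 461 in DMSO and 5467 in dTAG. The part of cells of that kind in this gate's values was not tested.

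Within 2CLC, where the members were already high, the ratio of dTAG over DMSO was smaller. The family sum was 59981 in DMSO and 149776 in dTAG, a log2 ratio of 1.32. Gm5662 had means of 22996 and 56587, Gm2016 of 17393 and 43094, and Gm8300 of 13058 and 34944. Gm2022 was at 3211 and 7277, and Gm2035 at 1851 and 5021. Gm2056, at 1471 and 2852, was the 1 member under 2-fold, with a ratio of 0.95. The other 5 ran from 1.18 to 1.44, against 5.23% of all genes at least 2-fold higher.

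Other genes of the 2-cell stage varied widely in that last contrast. Zscan4c, of a family tied to telomere lengthening in mESCs, was at 44464 in DMSO 2CLC and 52636 in dTAG 2CLC, a ratio of 0.24. Zscan4d had a ratio of 0.81. Duxf3, the copy of Dux named in the files, was lower in dTAG 2CLC, 512 against 270, a ratio of -0.92. Usp17lb, a deubiquitinase gene of the same stage, had a ratio of 2.58. Over 19 listed 2-cell genes the median was 0.81 with 8 at least 2-fold higher, beside a median of 1.30 for the 6 members and 0.01 for all genes.

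In the other dTAG contrasts the 2-cell list was close to the members. Of the 19 genes, 18 were at least 2-fold higher at 24 h, 19 at 7 d, 18 at 15 d and 18 in mESC. Their medians were 3.23, 4.24, 4.56 and 3.63, beside member medians of 3.54, 4.43, 4.71 and 3.62. The repeat MERVL-int had ratios of 2.44, 3.98 and 4.71 at 24 h, 7 d and 15 d. These genes and the members were compared in the same groups and share their control means.

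Eif1a, from which the copies take their name, and Eif1ax stood apart. Of 5 listed genes outside the cluster with Eif1 in their symbol, 0 were 2-fold higher or lower in any of the 9 ratios of group means. These were Eif1a, Eif1ax, Eif1, Eif1b and Eif1ad, of which only Eif1ax was aligned to each member's coding sequence. At 24 h they ran from -0.10 for Eif1a to 0.23 for Eif1b, and at 7 d the largest was Eif1a at 0.52. In 2CLC over mESC with DMSO they ran from -0.57 to 0.66. Of 13 other initiation factor genes, 0 of those with a mean of at least 10 were at least 2-fold higher with dTAG in the 5 contrasts of dTAG with DMSO. The Y-linked Eif2s3y was under that mean in 3 of these contrasts, with ratios of 0.81 at 24 h, 1.93 at 15 d (means of 1.32 and 7.85) and 1.45 in mESC (0.233 and 2.36). It was at 22.1 in DMSO 2CLC and 8.76 in dTAG 2CLC.

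Per kb of exon, the 6 members summed together were above Eif1a and Eif1ax, each a single gene, in some groups. In DMSO at 7 d the 6 members summed to 121 normalised counts per kb, beside 893 for Eif1a and 183 for Eif1ax. With dTAG at 7 d the sum was 2917 per kb, beside 1281 and 214. In DMSO 2CLC it was 44339 per kb, beside 530 for Eif1a and 96.6 for Eif1ax. These lengths are exonic, 4168 bases for Eif1a and 5266 for Eif1ax, and reads shared between members and other copies enter the sum. The alignment allowed no introns, and the reads lost at exon junctions were not counted for any gene.

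**Figure D2:**
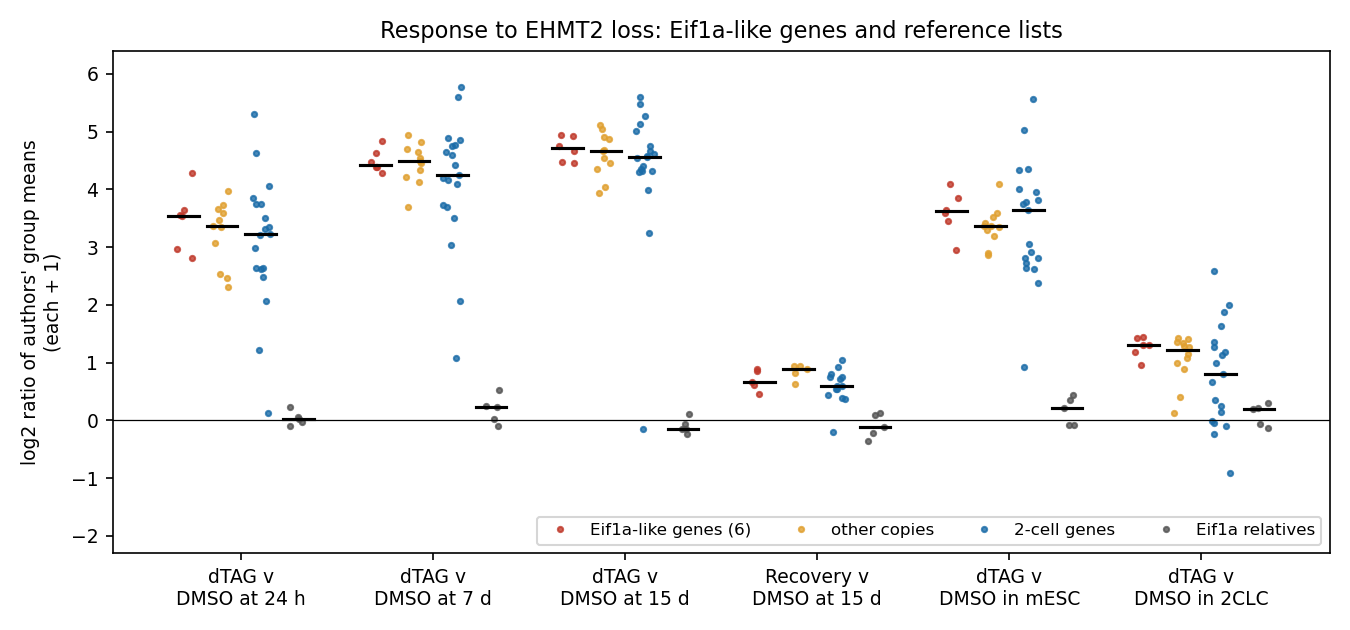
Log2 ratios of the authors' group means, each with 1 added, with 1 point per gene and a black bar at each median. Shown are the 6 members, 12 other copies of the cluster, 19 other 2-cell genes and 5 genes with Eif1 in their symbol, labelled Eif1a relatives. Only genes with a mean of at least 10 are drawn. The 5 Eif1 genes lie around 0 in every contrast. The member medians are 3.54 at 24 h, 4.43 at 7 d, 4.71 at 15 d, 0.67 in Recovery, 3.62 in mESC and 1.30 in 2CLC.

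The other copies of the cluster were higher with dTAG as well. At 24 h, 7 d, 15 d and in mESC, 11 of these 12 had a mean of at least 10, and 11 of 11 were at least 2-fold higher with dTAG each time. Within 2CLC, 8 of 12 were. Their sum was 105 in DMSO and 2699 in dTAG at 7 d. Of the 102 remaining genes of the region, 29 had such a mean at 7 d and 6 of them were at least 2-fold higher, with a median of 0.13. In 2CLC over mESC with DMSO, 31 of 42 were at least 2-fold higher, with a median of 4.79.

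Markers of other cells differed between some of these groups. Of 6 fibroblast feeder markers with a mean of at least 10, 5 were at least 2-fold lower in Recovery than in DMSO at 15 d and 6 were at least 2-fold higher in dTAG than in Recovery. The 8 markers summed to 3940, 4760 and 1576 in DMSO, dTAG and Recovery, and Lum was at 0 in Recovery. They summed to 361 and 727 in DMSO and dTAG mESC, and to 956 and 1640 in the 2CLC, where Lum was at 0 with dTAG. At 24 h the sums were 1739 and 2413, with no marker at 0, but the list was split. Col1a1, Col1a2, Thy1 and Acta2 were higher with dTAG, and Col3a1, Postn, Dcn and Lum were lower. Acta2 had means of 117 and 371 there, and Dcn of 20.5 and 1.13. At 7 d the sums were 1610 and 2871, with Lum at 0 in DMSO. The part of these markers in the members' values was not tested. Of 7 mESC markers, 0 were 2-fold different in the dTAG contrasts, and 4 were at least 2-fold lower in 2CLC than in mESC. The Ehmt2 transcript had ratios of -0.02, -0.09 and -0.31 at 24 h, 7 d and 15 d, where the degron acts on the protein.

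In the J1 experiment the files hold normalised counts for each library, from 8399885 to 12710949 reads over genes. Dppa4, the targeted gene, had 0 reads in all 6 KO libraries and 700 to 920 normalised counts in the 6 WT libraries. Values were compared with limma on log2(normalised count + 1) over all 12 libraries and 17258 genes, and a gene was called at an adjusted p under 0.05 and a change of at least 2-fold. The 4 members Gm2016, Gm2022, Gm5662 and Gm8300 passed the filter on low counts, and Gm2035 and Gm2056 did not. That filter was passed through the WT libraries, where the members are present.

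In WT cells Gm2016, Gm5662, Gm8300 and Gm2022 were higher with UNC0638 in each of 3 same-numbered pairs, and replicate 3 of both groups stood far above the others. No gene of the 17258 was called higher (0.0%). Gm2016 had 1.16, 19.7 and 131 normalised counts in the 3 DMSO libraries and 74.0, 99.0 and 731 with UNC0638. The DMSO library of replicate 3 thus lay above both of the lower UNC0638 libraries, and the groups overlapped. Gm5662 had 0, 19.7 and 107 with DMSO and 56.4, 68.2 and 552 with UNC0638, with the same overlap. Gm8300 had 6.98, 23.4 and 59.4 against 44.0, 40.2 and 295. Gm2022 had 0, 6.15 and 22.7 against 31.7, 24.3 and 122, so its highest DMSO value lay just under its lowest with UNC0638. The share of all genes without overlap was not counted.

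The copies with few reads had no clear order. Gm2035 had 6.98, 0 and 11.4 with DMSO and 6.16, 0.934 and 37.5 with UNC0638. Gm2056 had 0, 3.69 and 3.50 against 2.64, 0 and 21.6. Each was lower with UNC0638 in 1 of 3 same-numbered pairs.

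The family sum was 15.1, 72.6 and 335 with DMSO, 141 ± 170 (SD, n = 3), and 215, 233 and 1760 with UNC0638, 736 ± 887 (SD, n = 3). These rest on 13, 59 and 383 reads and on 244, 249 and 2204 reads. Without replicate 3 the means were 43.8 and 224. Within the pairs of one number the log2 ratio of UNC0638 over DMSO was 3.74, 1.67 and 2.39.

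No member was called for UNC0638 in WT cells. The log2 fold change of Gm5662 was 3.32 (SE 1.28) and that of Gm2016 3.29 (SE 1.16), each with an adjusted p of 0.563 by limma. Gm2022 was at 3.08 (SE 1.09, adjusted p = 0.563 by limma) and Gm8300 at 1.85 (SE 0.90, adjusted p = 0.566 by limma). Limma called 0 of 17258 genes in either direction, and 1504 genes had an unadjusted p under 0.05. EdgeR on the recovered reads also called 0 genes and DESeq2 called 14. The differences in the members were not larger than the spread between these libraries once all genes were allowed for. The 95% interval of Gm2016, 0.83 to 5.75, is wide. The fit pooled the spread over all 12 libraries, and the 6 KO libraries, at 0 reads for every member, added none. The SEs and this interval therefore understate the spread of the members in WT cells.

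In KO cells no read of any member was found. The 6 members had 0 reads in each of the 6 KO libraries, with DMSO and with UNC0638 alike, so no fold change between treatments can be given there. A floor of 3 reads over the 3 libraries of a group equals 1.05 normalised counts for KO DMSO and 0.949 for KO UNC0638. Against it, the family sum was at least 134-fold lower in KO than in WT with DMSO, and at least 776-fold lower with UNC0638. Without WT replicate 3 these bounds were 41.9-fold and 236-fold.

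The bounds followed the members' levels in WT. Gm2016 was at least 48.4-fold lower with DMSO and 318-fold lower with UNC0638. Gm5662 was at least 40.2-fold and 238-fold lower, Gm8300 at least 28.6-fold and 133-fold lower, and Gm2022 at least 9.19-fold and 62.6-fold lower. For Gm2035 the bounds were 5.84-fold and 15.7-fold, and for Gm2056 they were 2.29-fold and 8.50-fold. The bounds cover counting error only. Without WT replicate 3 that of Gm2016 was 9.95-fold with DMSO and 91.2-fold with UNC0638, and all 12 member bounds stayed above 1, the lowest being 1.39-fold for Gm2056 with UNC0638.

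**Figure D3:**
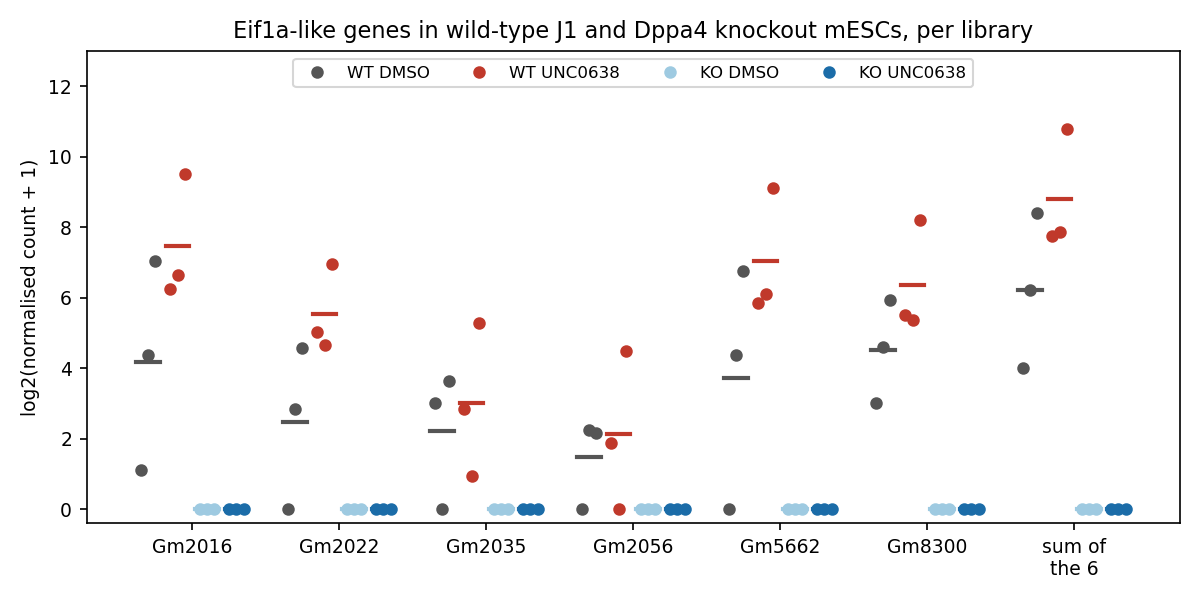
Log2(normalised count + 1) of each member and of their sum in the 12 J1 libraries, 1 point per library, by genotype and treatment. All KO points lie at 0, and in WT cells replicate 3 is the highest of its group for the family sum, 335 with DMSO and 1760 with UNC0638.

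With DMSO, Gm2016 and Gm8300 were called lower in KO than in WT, and 3.1% of all genes were called lower. Gm8300 had an adjusted p of 0.00822 and Gm2016 of 0.0407 by limma, while Gm5662 had 0.0918 and Gm2022 0.181. WT DMSO library 1 held 1 read of Gm2016 and 6 reads of Gm8300, and every KO library held 0. For Gm5662 and Gm2022 the first WT DMSO library was itself at 0 reads. The call of Gm2016 ended when WT DMSO library 2 or 3, WT UNC0638 library 1 or 2, or any KO DMSO library was left out, with adjusted p of 0.0517 to 0.189 by limma. That of Gm8300 ended without WT DMSO library 3, with an adjusted p of 0.0520 by limma. Without WT DMSO library 1, all 4 were called.

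With UNC0638 more of the members were called in the same contrast. All of Gm2016, Gm5662, Gm8300 and Gm2022 were called lower, with adjusted p of 0.00199, 0.00656, 0.000829 and 0.00983 by limma, and 2.31% of all genes were called lower. The lowest WT libraries had 74.0, 56.4, 40.2 and 24.3 normalised counts, and every KO library had 0. These members passed the count filter only through the WT libraries, and the KO values of 0 lowered the pooled spread. The adjusted p, those with DMSO included, are therefore no independent support for the absence of reads in KO. Without WT UNC0638 replicate 3, Gm5662 and Gm2022 had an adjusted p of 0.0541 and 0.0758 by limma and were no longer called. With every gene that had a read in the fit, Gm2035 and Gm2056 had adjusted p of 0.130 and 0.238 by limma here, and 0.282 and 0.455 with DMSO. The fitted fold changes of these genes depend on the 1 that is added to each value and are not given as sizes.

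Whether UNC0638 acted differently in the 2 genotypes could not be shown by the test of that difference. The interaction had adjusted p of 0.775 to 0.786 for the 4 members by limma. Limma called 0 of 17258 genes, with 1076 at an unadjusted p under 0.05, edgeR called 0 of 17258, and DESeq2 0 of the 3205 genes it gave an adjusted p. The KO values are all 0 and the WT response itself did not pass.

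Most other listed 2-cell genes were also at or near 0 in KO. Zscan4c had 31.4, 107 and 622 normalised counts in WT DMSO, 188, 221 and 1856 in WT UNC0638, and 0 in every KO library. Duxf3 had 2.33 to 8.74 and 1.87 to 27.9 in the WT groups and 0 in KO. Sp110 had 5.80 in KO DMSO library 3, and Usp17la and Usp17ld had 3.49 and 0.873 in KO UNC0638 library 3. Of 16 listed 2-cell genes tested, 9 were called lower in KO with DMSO and 14 with UNC0638, against 3.1% and 2.31% of all genes. Dppa2, the partner of Dppa4, ran from 640 to 855 in WT and from 722 to 1223 in KO. MERVL-int was present in every KO library, at 444 to 1407, beside 2199, 4355 and 12607 in WT DMSO and 14593, 12274 and 53609 in WT UNC0638. Zscan4c and MERVL-int were highest in replicate 3 of both WT groups, as was the family sum.

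Eif1a and Eif1ax were still present in KO cells. Eif1a had 946 to 1420 normalised counts in KO DMSO against 1776 to 2384 in WT DMSO, a log2 fold change of -0.82 (SE 0.20, adjusted p = 0.0256 by limma), which is under 2-fold. With UNC0638 it was -0.72 (SE 0.20, adjusted p = 0.0535 by limma). Eif1ax had 480 to 565 in KO DMSO and 622 to 690 in WT DMSO (log2 fold change -0.33, SE 0.16, adjusted p = 0.211 by limma). Of 13 other initiation factors, 1 was called lower in both contrasts, Eif2s3y, with 5.61 to 33.5 in WT and 0 in 5 of 6 KO libraries.

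Marker lists also differed between the genotypes. The 8 feeder markers summed to 2364 to 3854 in WT DMSO and to 1199 to 1677 in KO DMSO. With UNC0638 they summed to 2159 to 2981 in WT and 1353 to 2093 in KO, and Lum was at 0 in all but 1 library. All 6 that were tested had log2 fold changes below 0 with DMSO, and 1, Acta2, was called (-1.71, SE 0.35, adjusted p = 0.0103 by limma). The 7 mESC markers summed to 43277 to 58488 in WT DMSO and 61443 to 63298 in KO DMSO, with 1 of 7 called higher. The 7 markers of 2CLC summed to 52.4 to 933 in WT DMSO and to 0 in KO DMSO. With UNC0638 they summed to 400 to 3568 in WT and to 0 to 3.49 in KO, where 6 of 7 had no read. The part of these differences in the members' values was not tested.

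The members shared out their sum differently in the EHMT2-dTAG cells and the J1 cells, where line and experiment cannot be told apart. In the 11 group means of EHMT2-dTAG cells, the 2-exon genes Gm5662, Gm2016 and Gm8300 held 79.3% to 90.2% of the family sum. Gm5662 held 30.4% to 39.5% and Gm2016 23.6% to 31.1%, and per kb Gm5662 was above Gm2016 in 11 of 11 means, by log2 ratios of 0.08 to 0.54. In the 4 WT libraries of J1 with a family sum of at least 200, Gm2016 held 34.4% to 42.6% and Gm5662 26.2% to 31.9%. Per kb Gm2016 was above Gm5662 in 6 of 6 WT libraries, of which WT DMSO replicate 1 had 1 read at Gm2016 and 0 at Gm5662, and WT DMSO replicate 2 had 16 reads at each. Means and libraries were normalised in different tables, which does not alter shares within a column. The 4 sorted means, from reads of the same length as the J1 libraries, had Gm5662 above Gm2016 per kb by 0.29 to 0.48.

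Per kb of exon the order within the family was not fixed. In DMSO and dTAG at 24 h and 7 d Gm2022 came first, with 686 normalised counts per kb in dTAG at 7 d, followed by Gm5662 at 575 and Gm2016 at 521. Gm2035, Gm8300 and Gm2056 were at 411, 367 and 358. In both 2CLC means Gm5662 came first, at 12498 per kb with DMSO, then Gm2016 at 9849, and Gm2056 last at 3382. Gm5662 also came first in DMSO, dTAG and Recovery of the 15 d experiment and in both sorted mESC means. Reads were of 100 bases in the unsorted EHMT2-dTAG cells and of 150 in the sorted ones, and the part of this in the order was not tested. Neighbours in these orders cannot be told apart by a spread between samples, since each is a mean. In WT UNC0638 replicate 3, the library with the most member reads, the order was Gm2016 at 414, Gm5662 at 300.3, Gm2022 at 281, Gm8300 at 157, Gm2035 at 86.3 and Gm2056 at 49.6.

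**Figure D4:**
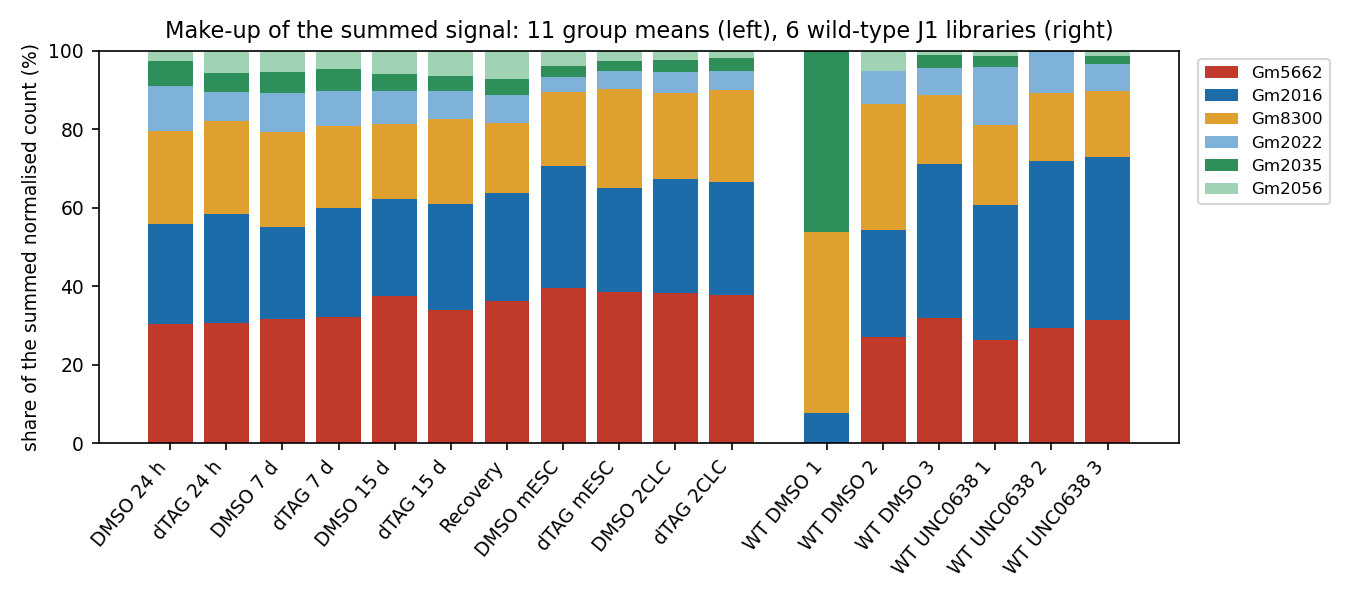
Share of the family sum counted at each of the 6 members, in percent, for the 11 group means of EHMT2-dTAG cells and the 6 WT libraries of J1, of which WT DMSO 1 rests on 13 reads. Gm5662 holds 30.4% to 39.5% in the group means, and Gm2016 holds 34.4% to 42.6% in the 4 J1 libraries with a family sum of at least 200.

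Over all 18 copies the shares in DMSO 2CLC and in the J1 libraries differed further. This sets sorted 2CLC beside unsorted J1 cells, where 4879 of the 5773 WT reads came from UNC0638 libraries. Line, cell state, treatment and experiment cannot be told apart here. In DMSO 2CLC the members Gm5662, Gm2016 and Gm8300 held 19.0%, 14.4% and 10.8% of the signal, and in the 5773 reads of the WT J1 libraries 16.8%, 22.1% and 9.61%. Gm6803, 1 of the other copies, held 2.83% in DMSO 2CLC and had 0 of the 5773 WT reads, which allows a share of up to 0.0520% by counting error alone. Gm21319, Gm8607 and Gm16368 held 1.91%, 1.21% and 0.20% in DMSO 2CLC and 0.12%, 0.07% and 0.07% of the WT reads. These 4 copies together held 6.15% of the former and 0.26% of the latter, or 15 reads. The 3 reads counted over the copies in KO cells all came from KO DMSO replicate 3, at Gm4027 and BB287469.

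**Figure D5:**
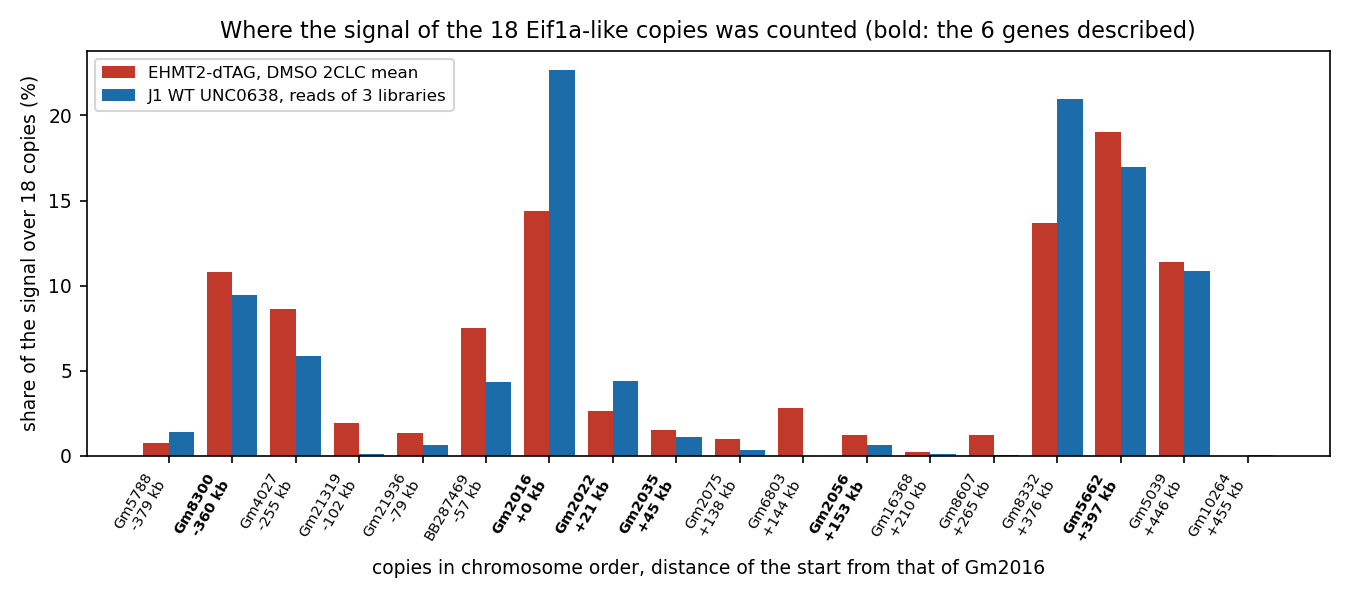
Share of the signal over the 18 Eif1a-like copies that was counted at each, in percent, in chromosome order by distance from the start of Gm2016, for the DMSO 2CLC mean and the summed reads of the 3 WT UNC0638 libraries, with the 6 members in bold. Gm2016 holds 14.4% in DMSO 2CLC and 22.7% in WT UNC0638, and Gm6803 holds 2.83% and 0 reads.

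The genes whose pattern was most like the family sum over the 12 J1 libraries were Gm8764, Gm21293, Gm20765 and Gm6763 on chromosome 10 and Zscan4f on chromosome 7. Pearson's r of log2(normalised count + 1) was 0.9997, 0.9995, 0.9994, 0.9988 and 0.9988, among 17254 genes. These are descriptions without a test, since 6 of the 12 points lie at 0 for all of them and the WT points share libraries. Gm8764 ran from 12.8 to 961 over the WT libraries and Zscan4f from 10.5 to 1350. Over the 11 group means, which span 3 tables and were added after values were seen, Usp17lc, Gm8332, Usp17ld, Gm21936 and Zscan4d came first with r of 0.9987 to 0.9981 among 18656 genes. Gm8332 and Gm21936 are copies of the same cluster that can share reads with the members.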

How the data were processed

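The authors trimmed reads with Trim Galore 0.6.7, aligned them with STAR 2.7.10 to mm10 without introns, placing a read that matched several sites equally well at 1 of them at random, counted genes and repeats against GENCODE vM25 with TE Counts, and divided counts by DESeq2 (1.34.0) size factors. The deposited signal values are these normalised counts, per library in the J1 experiment and as group means elsewhere. The authors' own fold changes and p-values were not used. In the J1 files 100% of values were whole reads (within 0.01) once divided by the value of 1 read. Group means were compared by ratio, with 1 added and a mean over both groups of at least 10. J1 libraries (8399885 to 12710949 gene reads) were fitted with limma 3.58.1 in R 4.3.3 on log2(normalised count + 1), with 4 group means and no covariate, for genes passing edgeR's filterByExpr on the recovered reads. P-values were adjusted by Benjamini-Hochberg over 17258 genes. EdgeR 4.0.16 and DESeq2 1.42.0 on the recovered reads were alternatives. On simulated data 92.5% to 95% of 200 genes changed 4-fold were found in the 3 comparisons simulated. The share found at the spread of the members in WT libraries was not tested. Gm2016 there had a mean of 50.7 (SD 70.3, n = 3) with DMSO and 301 (SD 373, n = 3) with UNC0638. The study's methods name clonal lines for the J1 experiment but the labels do not tie a library to a line, and p-values measure the spread between these libraries. Same-numbered libraries deviated together within WT (r of 0.10 to 0.43 in 3 of 3 pairs) but not within KO (1 of 3 over 0.1) or between genotypes (3 of 12). The members, though taken by name, and the lists were chosen with earlier results of these data known. Named are all 6 members, fixed lists of neighbours, Eif1 genes, initiation factors, 2-cell genes and markers, and the 5 genes most like the family sum. Coding sequences and exons were read from the GRCm38 genome with GENCODE vM21, which held all 6 members.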

Additional observations from a re-analysis of the deposited data

How the results depend on the processing

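For Gm2016, Gm2022, Gm5662 and Gm8300, no result changed direction under any alternative run. UNC0638 against DMSO in KO was not included, since all values of the members there are 0. The alternatives were other pseudocounts, TMM scaling, edgeR, DESeq2, all genes with a read, the replicate block and leaving out libraries. Gm2035 and Gm2056, which did not pass the filter, were fitted in 1 alternative, with every gene that had a read, and were not called. With UNC0638, KO against WT was called for Gm2016 and Gm8300 in 21 of 21 alternatives, for Gm5662 in 20 and for Gm2022 in 19. With DMSO it was called for Gm8300 in 19 of 21, Gm2016 in 10 (adjusted p 0.0574 by edgeR, 0.0921 with a pseudocount of 5, 0.0763 with every gene that had a read, by limma), Gm5662 in 2 and Gm2022 in 1. The members' KO values were 0 in every alternative, so these counts are no independent support for the absence of reads in KO. In the main fit 2.31% of all genes were called lower in KO with UNC0638 and 3.1% with DMSO. UNC0638 against DMSO in WT was called for none of these 4 members in 22 alternatives (adjusted p 0.325 to 0.958).

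Counts of called genes over the whole table depended on the setting, and the cause was not tested. UNC0638 against DMSO gave 0 genes in WT and 14 by DESeq2, and 0 to 1 without 1 library. In KO it gave 80, against 37 by edgeR, 285 by DESeq2, 12 with every gene that had a read and 2 to 373 without 1 library. KO against WT gave 765 with DMSO (280 to 950 without 1 library) and 567 with UNC0638 (868 by DESeq2, 177 to 630 without 1 library). The interaction gave 0, and 0 to 1 without 1 library. An alternative chosen after seeing the data left out replicate 3 of both WT groups together and gave 1, 16, 304, 187 and 1 genes in these 5 comparisons. It left no member called in KO with DMSO (Gm8300 adjusted p 0.0588, Gm2016 0.201, by limma) and 3 with UNC0638 (Gm2022 0.0657).

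With the replicate number as a block, UNC0638 against DMSO gave 0 genes in WT, and the pairing changed no member's call there. The block gave 172 genes in KO, or 155 with the block within genotype, and added Gm5662 in KO against WT with DMSO (adjusted p 0.0449 by limma), where the numbers do not pair the samples. No paired analysis was possible for the group means because they hold 1 value per group.

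Among group means, requiring a mean of at least 1 or at least 50 in place of 10 changed the count of genes at least 2-fold higher. At 24 h it gave 1403 and 137, at 7 d 1896 and 319, at 15 d 1885 and 338, for Recovery against DMSO 674 and 121, and for dTAG against Recovery 2227 and 478. For dTAG in mESC it gave 2285 and 267, in 2CLC 2045 and 501, and for 2CLC against mESC 5339 and 1385 with DMSO and 4710 and 1405 with dTAG. Gm2035 and Gm2056 had 74 and 37 reads in all 6 WT libraries together.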

Other observations

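Among the other genes of the region that are no copy of Eif1a, a few had high levels in 2CLC. Gm18983 had an authors' mean of 30.8 in DMSO mESC and 8779 in DMSO 2CLC, and 7065 in dTAG 2CLC. Gm1995 had means of 14.8, 4354 and 8283 in the same groups, and Gm7104 had 3.96, 1091 and 2129. In bulk cells at 7 d their means in DMSO and dTAG were 18.2 and 320 for Gm18983, 5.12 and 124 for Gm1995, and 2.18 and 42.0 for Gm7104. All 3 had 0 reads in the 6 KO libraries. With UNC0638 they were called lower than in WT by limma (adjusted p 0.0314, 0.000780 and 0.0337), against 2.31% of all genes. With DMSO only Gm1995 of the 3 was called (adjusted p 0.00822 by limma), against 3.1% of all genes. All 3 passed the count filter only through the WT libraries, so these adjusted p are no independent support for their absence in KO. Gm21939, also in the region, had means of 36.0 in DMSO mESC and 7374 in DMSO 2CLC and was at 0 in all 12 J1 libraries, WT included. These 4 genes were chosen after their values were seen, for their difference between 2CLC and mESC.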
